A study of Mus musculus with 4 samples.

Results

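The Ly6 genes examined here are Ly6a, Ly6c1, Ly6c2, Ly6d, Ly6e, Ly6g and Ly6i, which were chosen by name and are 7 of the 32285 genes in the count table. Their levels were read in leukocytes of EO771 mammary tumors, grown from a C57BL/6 mouse mammary cancer cell line injected into the mammary fat pad of female C57BL/6 mice. Of 53361 cell barcodes in the table, the 28429 that the authors kept were used, and cell types were assigned by lineage marker genes that hold no Ly6 gene.

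The groups were 2 Csf1rfl/fl tumors, whose mice carry loxP-flanked alleles of the colony stimulating factor 1 receptor without Cre, and 2 Lyve1CreCsf1rfl/fl tumors, whose mice carry the same alleles together with Cre driven by Lyve1. The floxed alleles are thus shared by all 4 mice. Lyve1 is also expressed by lymphatic endothelium, so deletion in this model need not be restricted to macrophages. Viable CD45+ cells were sorted, and each of 2 Chromium runs held cells from 1 tumor per genotype, whose origin was read from hashtag antibodies. The age of the mice was not given in the sources used here.

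Ly6 proteins are small surface proteins, most of them held on the membrane by a glycolipid anchor, that share a fold set by pairs of cysteines. Antibodies to them have long been used to sort mouse leukocytes: Ly6C, encoded by Ly6c1 and Ly6c2, marks inflammatory monocytes, Ly6G marks neutrophils, the Gr-1 antibody binds both, and Ly6A is the stem cell antigen Sca-1. Several members, among them Ly6a, Ly6c2 and Ly6e, are known to rise with interferon.

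The members lie in 397 kb of chromosome 15 (GRCm38, GENCODE annotation), in the order Ly6d (chr15:74762056-74763620), Ly6e (chr15:74955051-74959905), Ly6i (chr15:74979534-74983430), Ly6a (chr15:74994877-74998031), Ly6c1 (chr15:75044018-75048830), Ly6c2 (chr15:75108158-75111970) and Ly6g (chr15:75155240-75159126). Ly6e and Ly6g lie on the plus strand and the other 5 on the minus strand. The transcripts of Ly6a, Ly6c1, Ly6c2, Ly6g and Ly6i were 83.1% to 97.6% identical in pairs. The closest pair was Ly6c1 and Ly6c2, which were 97.6% identical over 822 bases and shared an exact run of 188 bases. Reads that fall in such a run cannot be placed by sequence, so counts of either gene may be low or uncertain. Ly6d and Ly6e aligned with the other members over 38 bases or fewer.

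The windows around the transcription start of Ly6c1, Ly6c2 and Ly6g (250 bases before to 50 after, RefSeq, GRCm38.p6, printed 5′ to 3′ on the gene's own strand) are shown because these near neighbors had quite different levels in the same cells. Capitals mark GAGGAAGT, letters of the kind bound by the myeloid and lymphoid factor PU.1, searched on both strands. The 3 windows lie at chr15:75048614-75048913 on the minus strand, chr15:75111888-75112187 on the minus strand and chr15:75155079-75155378 on the plus strand.
Ly6c1: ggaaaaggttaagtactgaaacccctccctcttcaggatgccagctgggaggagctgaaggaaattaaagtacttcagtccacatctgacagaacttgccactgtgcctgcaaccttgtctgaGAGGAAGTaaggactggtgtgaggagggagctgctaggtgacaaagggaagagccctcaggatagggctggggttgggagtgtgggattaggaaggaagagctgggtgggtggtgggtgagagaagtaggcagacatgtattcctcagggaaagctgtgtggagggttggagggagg
Ly6c2: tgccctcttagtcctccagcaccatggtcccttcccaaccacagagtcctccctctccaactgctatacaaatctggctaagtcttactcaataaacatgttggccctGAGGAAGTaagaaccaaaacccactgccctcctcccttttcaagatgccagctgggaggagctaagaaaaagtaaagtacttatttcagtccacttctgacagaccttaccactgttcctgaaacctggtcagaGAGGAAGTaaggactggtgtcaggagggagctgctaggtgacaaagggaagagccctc
Ly6g: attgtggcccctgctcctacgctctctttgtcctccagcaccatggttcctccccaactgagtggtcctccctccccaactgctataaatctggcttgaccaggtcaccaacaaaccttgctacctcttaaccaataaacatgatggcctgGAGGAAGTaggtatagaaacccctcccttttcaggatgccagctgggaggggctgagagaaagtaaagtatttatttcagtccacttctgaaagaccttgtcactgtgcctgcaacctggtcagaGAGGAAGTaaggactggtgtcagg

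The capital letters were matched 1 time in the printed Ly6c1 window and 2 times each in the printed Ly6c2 and Ly6g windows. Counted from the start, the first match began at -127 in Ly6c1, -142 in Ly6c2 and -99 in Ly6g. The single Ly6c1 match and the second match in Ly6c2 and Ly6g are followed by the same letters. The windows thus cover different parts of a shared stretch, and the counts depend on where each window ends. Bases outside the start windows were not searched. The table holds a second start window for each gene, with 0 matches for Ly6c1, 2 for Ly6c2 and 1 for Ly6g, and the window printed is the one that shares the longest exact run with those of the other genes. The letters occur in 3.2% of the 32851 windows in the table. The printed windows of Ly6c1 and Ly6c2 were 92.4% identical over 157 aligned bases, and those of Ly6c2 and Ly6g 87.5% over 255 bases. The interferon-gamma type letters TTCNNNGAA, also searched on both strands and found in 8.3% of all windows, were not matched in the windows of these 3 genes. No start window of the other 4 members was used here.

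The 4 tumors gave 4771 to 8699 kept cells each, with 27686362 to 56715743 RNA molecules (UMIs, unique molecular identifiers) in all and medians of 3721 to 4657 UMIs per cell. The Csf1rfl/fl tumor of run 1 stood apart in quality, with 6.82% of its cells under a 3-fold lead of the assigned hashtag (0.218% to 1.41% in the others) and 25.5% called doublets by Scrublet (12.5% to 16.2%). The runs share 60 barcodes. Lineage gates assigned 19770 cells to a single type, while 4311 matched no gate and 4348 matched several and were left out. CD45 (Ptprc) was read at 8.76 UMIs per 10000 in cells outside a small cluster of tumor or stromal type, and at 0.19 in that cluster of 246 cells. Csf1r, the targeted gene, stood at 1.87 and 2.34 UMIs per 10000 in Csf1rfl/fl macrophages and at 1.51 and 1.45 in Lyve1CreCsf1rfl/fl macrophages, and the genotypes did not overlap there, in monocytes (2.37 and 2.35 against 1.48 and 1.55) or in neutrophils (0.711 and 0.494 against 0.37 and 0.431). Levels of the genotypes did not overlap in 22.7% of all gene by cell type pairs either, and no test of Csf1r is given.

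Levels below are UMIs of the gene per 10000 UMIs of all genes in a cell type of a tumor, given as the mean ± SD over tumors. The method tags the 3′ end of each transcript, so a level is not scaled by gene length. Tumors are listed in the order Csf1rfl/fl run 1, Csf1rfl/fl run 2, Lyve1CreCsf1rfl/fl run 1 and Lyve1CreCsf1rfl/fl run 2.

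**Figure D1:**
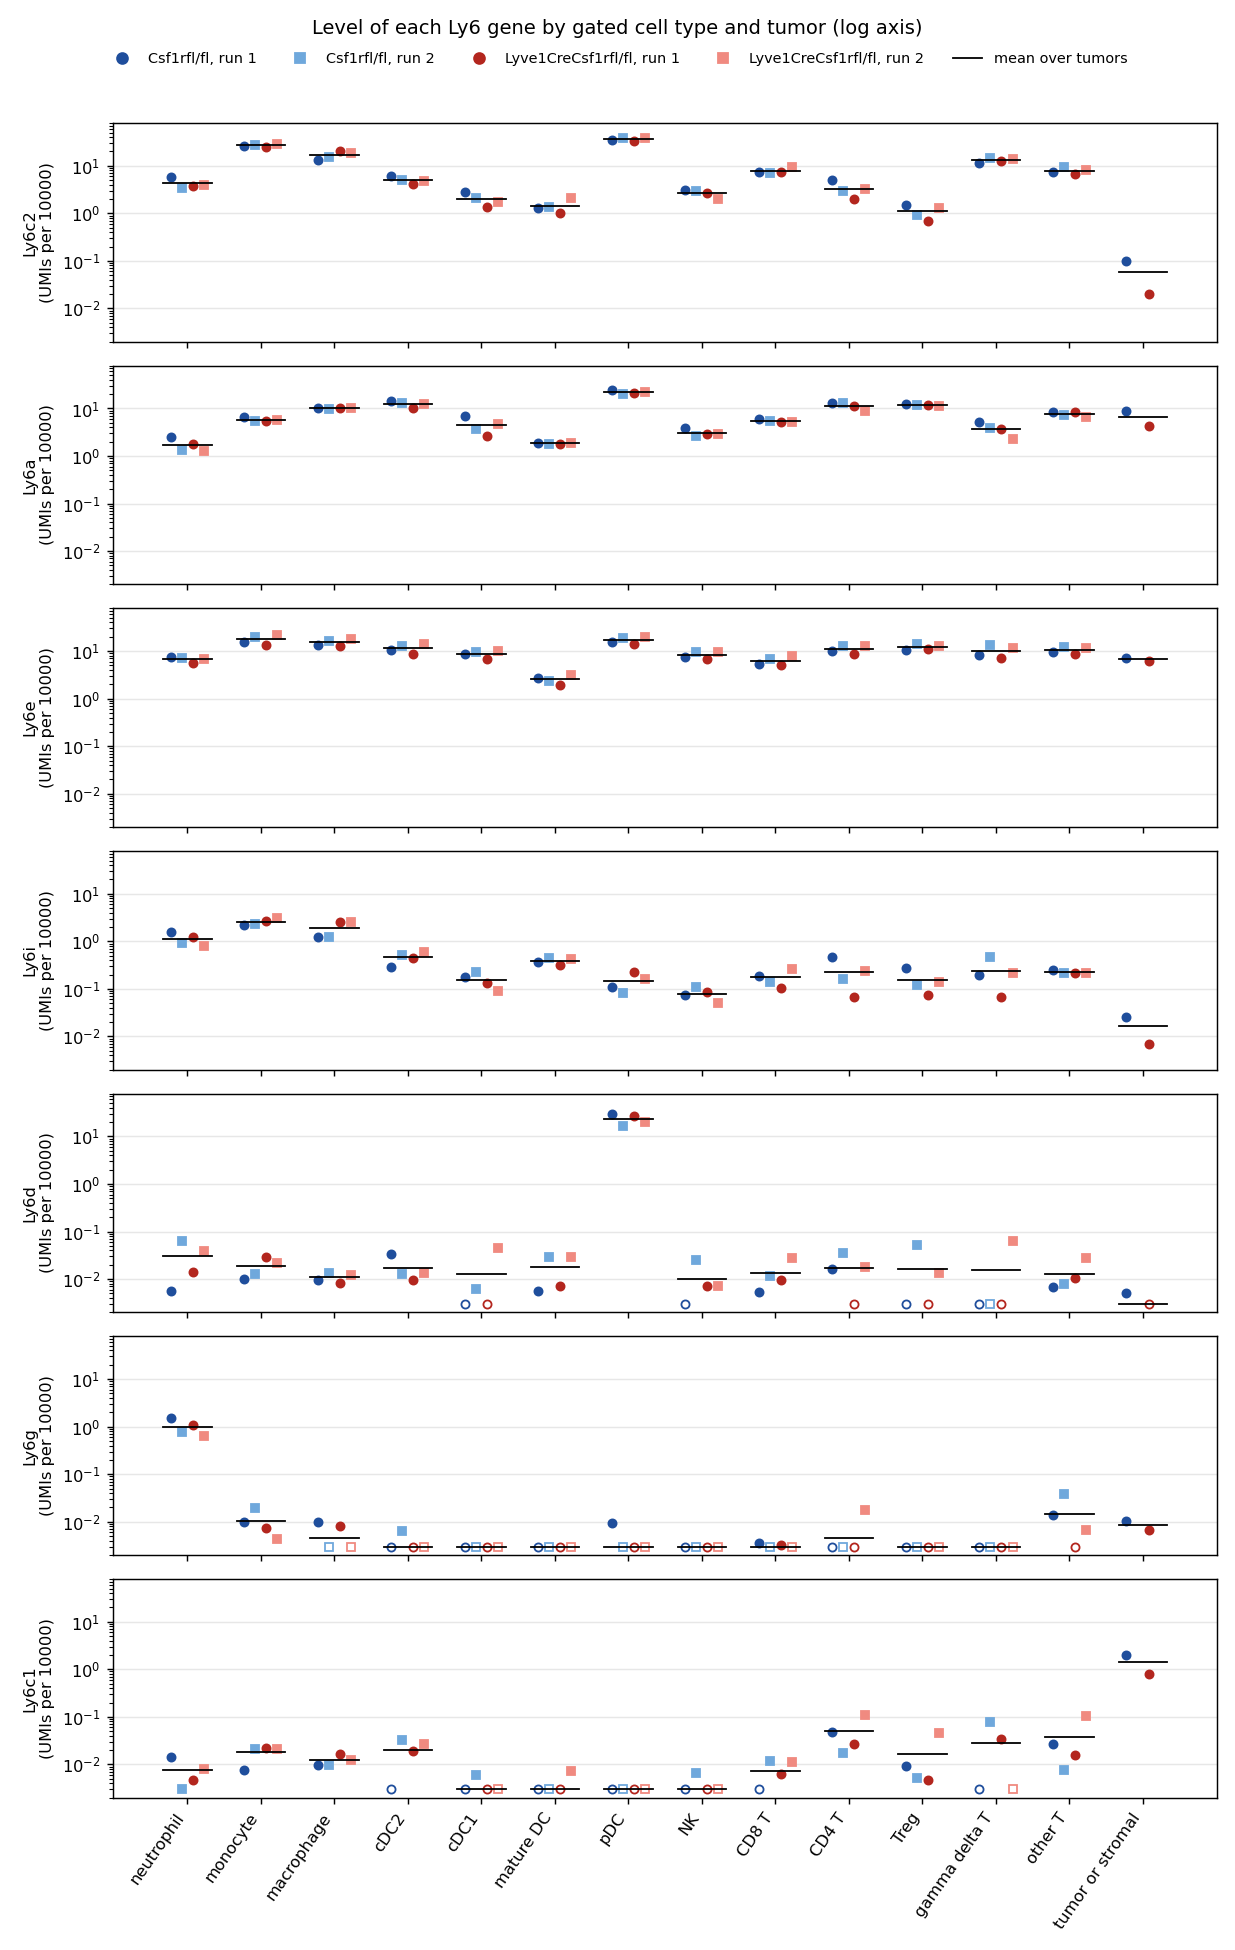
Level of each Ly6 gene (UMIs per 10000, log axis) in 14 gated cell types, with a point for each tumor and a line at the mean; open symbols are values of 0 or under 0.003, drawn at 0.003. Ly6d stands apart in plasmacytoid dendritic cells, Ly6g in neutrophils and Ly6c1 in cells of tumor or stromal type, while Ly6a, Ly6e and Ly6c2 were at a mean of 1.1 or more in each leukocyte type.

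The 7 members fell into broad and narrow patterns. Ly6e, Ly6c2 and Ly6a were the abundant members, with 164684, 152751 and 112808 UMIs over all kept cells. The lowest mean level of any of these 3 among the 13 leukocyte types described was 1.1 UMIs per 10000 for Ly6c2, in regulatory T cells, where the macrophage gene C1qa was read at 0.0374 to 0.0601. No share of these levels that free RNA may give was estimated. Ly6i was lower, with 14543 UMIs, and was mainly myeloid. Ly6d (8349 UMIs), Ly6g (2090) and Ly6c1 (1679) were each nearly limited to a single type among those described. Kept cells that matched no gate or several held 34.7%, 34.9% and 53.7% of the UMIs of these genes.

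Ly6c2, the main source of the Ly6C antigen of monocytes, was highest, among gated types, in plasmacytoid dendritic cells (pDCs), the lymphoid-looking dendritic cells that make type I interferon. Its level there was 35.3, 37.8, 32.8 and 37.6 UMIs per 10000 in the 4 tumors. Monocytes followed at 25.6, 27.8, 25.1 and 28.5. Macrophages stood at 13.5, 15.4, 20.2 and 18.6. These ranges did not overlap in that order, so gated pDCs lay above gated monocytes and these above macrophages in every tumor. By clusters that first order did not hold: monocyte cluster 1 was at 27.3, 39.8, 32.5 and 34.8, overlapping the pDC cluster at 28.7, 33, 29.8 and 36.6. Gamma delta T cells (13.2 ± 1.6) overlapped macrophages and lay above CD8 T cells (7.83 ± 1.1) in all 4 tumors. From cDC2 (4.98 ± 0.8) downward through neutrophils (4.25 ± 1), conventional CD4 T cells (3.3 ± 1.2), NK cells (2.72 ± 0.48), cDC1 (2.01 ± 0.59), mature dendritic cells (1.46 ± 0.48) and regulatory T cells (1.1 ± 0.36), each neighbor in the order overlapped the next. The place of cDC2 there depended on the gate, since the cDC2 cluster read 11.6, 11.1, 9.77 and 12.5. In cells of tumor or stromal type, measured in 2 tumors, Ly6c2 was at 0.0986 and 0.0203.

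Ly6a, the Sca-1 gene, was also highest in pDCs, at 24.7, 20.4, 21.2 and 21.8 UMIs per 10000, above every other type in all 4 tumors. It ran in a different order below that. cDC2 (12.6 ± 1.9), regulatory T cells (12 ± 0.44), conventional CD4 T cells (11.5 ± 2) and macrophages (10.1 ± 0.39) followed, each overlapping the next in that order. Monocytes (5.8 ± 0.58) overlapped CD8 T cells (5.51 ± 0.41), and the lowest levels were those of mature dendritic cells (1.85 ± 0.068) and neutrophils (1.73 ± 0.58), which overlapped. That overlap depended on the gate. The mature dendritic cluster read 3.2, 2.77, 2.41 and 2.78, above neutrophil clusters 7, 9 and 21 in every tumor (means of 0.645, 0.757 and 1.31). Regulatory T cells thus ranked near the top for Ly6a and last among leukocytes for Ly6c2.

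Ly6e, which encodes an interferon-inducible surface protein known for its part in virus entry, was the most even member. Its level ran from 17.6 ± 3.7 in monocytes, 17.1 ± 2.8 in pDCs and 15.2 ± 2.6 in macrophages to 6.25 ± 1.3 in CD8 T cells. Mature dendritic cells were the exception. Ly6e was at 2.73, 2.4, 1.95 and 3.19 there, below every other type without overlap. By clusters the ranges overlapped. The mature dendritic cluster read 3.72, 3.9, 2.69 and 4.03, lower in each tumor than neutrophil cluster 9 at 4.94, 5.28, 3.84 and 4.19. In 11 of 13 types both run 2 tumors lay above both run 1 tumors for Ly6e, as in monocytes (15.5, 19.6, 13.7 and 21.7).

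Ly6i, a close relative of Ly6a and Ly6c2 in sequence, was highest in monocytes at 2.22, 2.27, 2.74 and 3.09 UMIs per 10000. Macrophages (1.89 ± 0.76) and neutrophils (1.13 ± 0.34) followed, and cDC2 (0.463 ± 0.13) lay below all 3 without overlap. By clusters the top place held for monocyte cluster 1 (5.4, 6.02, 6.87 and 7.7) only. Monocyte cluster 2 (0.758, 0.804, 0.946 and 0.872) lay below macrophage cluster 3 (1.32, 1.47, 3.01 and 2.47) in every tumor. It overlapped the cDC2 cluster (0.609, 0.625, 0.951 and 1.05), as did neutrophil cluster 7 (0.706, 0.499, 0.549 and 0.221). The T and NK cell types described were between 0.0795 ± 0.024 (NK cells) and 0.237 ± 0.17 (gamma delta T cells). In clusters assigned to T or NK cells the means ran from 0.0235 (cluster 4) to 0.128 (cluster 11). Clusters 10 and 13, led by the T cell gate but with 87.7% and 85.4% of cells called doublets by Scrublet, read 1.21 and 0.434. The few kept B cells were higher, at 2.05 in the 31 of the Lyve1CreCsf1rfl/fl run 2 tumor. In pDCs, where Ly6a and Ly6c2 were highest, Ly6i was only 0.11, 0.0816, 0.225 and 0.161.

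Ly6d, a gene long used to mark early B lineage cells, was a pDC gene among the kept cells. It was read at 29, 16.8, 26.8 and 20 UMIs per 10000 in pDCs, in 90.5% of 473 cells. No other type described averaged above 0.031, the value in neutrophils, where 0.714% of 4762 cells had a UMI (median depths of 4125 and 2076.5 UMIs per cell). Of all Ly6d UMIs, 86.1% lay in a cluster of 620 cells led by the pDC genes Klk1, Cox6a2, Siglech and Ccr9. Among B cell genes Ms4a1 and Pax5 were at 0 in the gated pDCs of every tumor, from which cells matching the B cell gate as well had been left out. Ebf1 and Cd79a were at most 0.0375 and 0.0268 there, while Cd79b was at 0.294 to 0.506 and Siglech at 18.6 to 22.1. Only 41 kept cells passed the B cell gate, and in the 31 of the Lyve1CreCsf1rfl/fl run 2 tumor Ly6d was at 2.86.

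Ly6g, the antigen that defines mouse neutrophils by antibody, was read at 1.51, 0.782, 1.07 and 0.639 UMIs per 10000 in neutrophils, with both run 1 tumors above both run 2 tumors. Only 14.6% of 4762 gated neutrophils had a Ly6g UMI, at a median depth of 2076.5 UMIs per cell, and in monocytes, at a median depth of 4850, 0.573% did. Its mean in any other type described was at most 0.0148. In gated neutrophils as a whole Ly6e (6.75 ± 0.88) and Ly6c2 (4.25 ± 1) were read at higher levels than Ly6g in every tumor. In the cluster richest in Ly6g (cluster 7 of the neutrophil clusters) that order did not hold for Ly6c2 in the Lyve1CreCsf1rfl/fl run 1 tumor, at 1.56 against 2.05 for Ly6g. Ly6a was above Ly6g in gated neutrophils (1.73 ± 0.58) but below it in each tumor in that cluster, at 0.644, 0.633, 0.744 and 0.56.

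Ly6c1, a Ly6C gene known from endothelium, was near 0 in the leukocyte types described. In cells of tumor or stromal type it was at 2.04 and 0.785 in the 2 tumors with enough cells, and its mean in any leukocyte type described was at most 0.0504, in conventional CD4 T cells. The 31 kept B cells of the Lyve1CreCsf1rfl/fl run 2 tumor, a type too small to describe across tumors, read 1.02, and all 19 UMIs in kept B cells lay in 2 of 41 cells. In gated pDCs there were 0 Ly6c1 UMIs, which allows up to 0.0143 per 10000 (3 counts over the 4 tumors, counting error only). The pDC cluster read 0 in both Csf1rfl/fl tumors and 0.0281 and 0.0618 in the others. Of the 1679 UMIs, 86.7% lay in the tumor or stromal cluster, in which the matrix gene Sparc was at 7 and the epithelial keratin Krt8 at 1.51 UMIs per 10000. Of endothelial genes, Cdh5 was at 0.382 there against 0.0251 in the other kept cells, and Pecam1 at 0.0433 against 0.271. Scrublet called 45.9% of that cluster doublets, and 52.8% of its cells matched several gates.

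Across 14 cell types the members most alike in level were Ly6a and Ly6e (Pearson r = 0.72 of log2 levels), followed by Ly6c2 and Ly6e (0.57) and Ly6c2 and Ly6i (0.56), while Ly6c1 and Ly6c2 ran opposite (-0.66). These values describe 14 types from the same libraries, and 1 extreme type can set them. Among all 5357 genes at 0.5 UMIs per 10000 or more in some type, Ly6d was most like Klk1, a gate gene, then Pgam2 (r = 0.999) and Iglc3 (0.999). Ly6g was most like Mrgpra2b (0.998), Mrgpra2a, Prok2 and Ngp, a neutrophil granule gene. Ly6i was most like Lst1 (0.979), Sirpb1c (0.965), Atp6v1b2 (0.959) and Sat1 (0.948). For Ly6c2 the nearest were Ptpn6 (0.925), Ncoa1, Usp18 and Rsrp1, for Ly6a Smim15 (0.891), Lztfl1, Rap1a and Snx9, for Ly6e Lamtor4 (0.91), Tgfb1, Atf6 and Derl1, and for Ly6c1 Col16a1 (0.993), Rundc3a, Lama5 and Nid1.

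To ask which members distinguish neighboring cell types, UMIs were summed per tumor and cell type and 9 contrasts were fitted over the 4 tumors with edgeR's quasi-likelihood test, with the tumor as a block and Benjamini-Hochberg adjustment over all genes tested. The log2 differences below come from these fits and are scaled by TMM, so they can differ from ratios of the levels. Over the 9 contrasts 39 differences of members passed the count filter and 33 had an adjusted p under 0.05, beside 33.7% of all gene by contrast tests. Ly6a, Ly6c2, Ly6e and Ly6i passed the filter in all 9, Ly6d in 2, Ly6g in 1 and Ly6c1 in none.

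**Figure D2:**
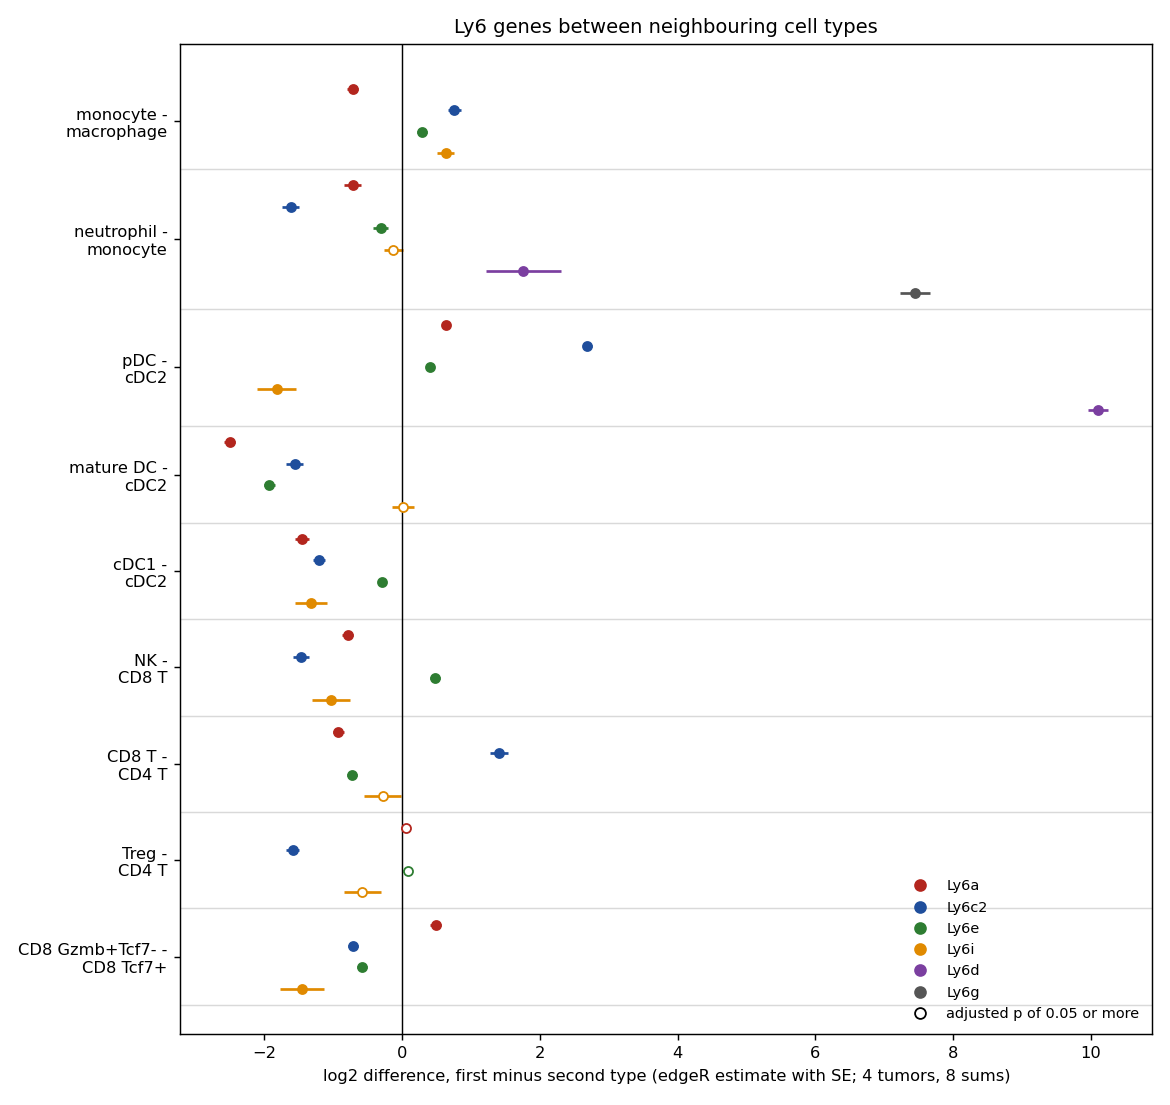
Log2 difference of each Ly6 gene between neighboring cell types (first minus second type, edgeR estimate with its SE, 4 tumors and 8 sums each); filled points have an adjusted p under 0.05. Between monocytes and macrophages Ly6c2 (0.76) and Ly6a (-0.72) lie on opposite sides of 0, and Ly6d reaches 10.10 between plasmacytoid dendritic cells and cDC2.

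Monocytes and macrophages differed in all 4 members tested, beside 26.6% of all genes in that contrast. Their gates were parted by whether any C1qa, C1qb or C1qc UMI was read in a cell. Ly6c2 was higher in monocytes by 0.76 ± 0.10 (SE) on the log2 scale (adjusted p = 3.9e-05, edgeR), a 1.69-fold difference. Ly6a went the other way, at 5.8 in monocytes against 10.1 UMIs per 10000 in macrophages, a log2 difference of -0.72 ± 0.08 (adjusted p = 6.1e-06, edgeR). The tumors did not overlap for either gene, with 4 of 4 in each direction. By clusters Ly6a was at 11.1, 9.41, 10.6 and 9.99 in macrophage cluster 3. Monocyte cluster 1 overlapped it, at 10.2, 12, 11.3 and 11.2, and monocyte cluster 2 lay below, at 3.52, 2.02, 2.56 and 1.92. The lower Ly6a of monocytes was thus seen in cluster 2 and not in cluster 1. Ly6i (0.63 ± 0.13) and Ly6e (0.29 ± 0.07) were higher in monocytes in 4 of 4 tumors, though the ranges over tumors overlapped. Without the tumor as a block neither had an adjusted p under 0.05 (0.16 and 0.24, edgeR), and Ly6e was 0.27 without the run 1 Csf1rfl/fl tumor and 0.24 without that of run 2 (adjusted p = 0.059 and 0.083, edgeR). Over the alternatives the adjusted p ran from 1.3e-10 to 0.16 for Ly6i and from 2.3e-05 to 0.24 for Ly6e. By clusters Ly6i lay above macrophage cluster 3 in monocyte cluster 1 and below it in monocyte cluster 2, in every tumor.

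Within the macrophage gate the members also differed with the level of C1q, complement genes that mark mature macrophages. Ly6c2 averaged 19.4, 23.7 and 12.9 UMIs per 10000 in macrophages with summed C1qa, C1qb and C1qc under 5, from 5 to 20 and at 20 or more per 10000. The highest bin lay below the others in each tumor. Ly6a averaged 8.21, 9.63 and 11.1 in the same bins, with overlap, and Ly6e stayed between 14.5 and 16.2.

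Monocytes split by the detection of Treml4 and Fn1, both markers of the monocyte gate, differed in Ly6i and Ly6a. The rest of the 2618 gated monocytes had both or neither of these transcripts and were left out of the split. In the 335 monocytes with Treml4 UMIs and no Fn1, Ly6i was at 5.06, 5.48, 5.76 and 7.56 UMIs per 10000 in the 4 tumors. In the 1093 with Fn1 UMIs and no Treml4 it was at 0.749, 0.7, 0.96 and 0.71. Ly6a differed in the same direction, at 10.1, 8.23, 7.22 and 8.97 against 3.95, 2.17, 2.73 and 2.99. For both genes every Treml4+ value lay above every Fn1+ value. Ly6c2 overlapped between them (27.9 ± 2.1 and 24.3 ± 1.5), and Ccr2, the receptor of classical monocytes, was 3.12 ± 0.84 in the Treml4+ cells and 6.49 ± 1.9 in the Fn1+ cells. Of 5 other genes known from nonclassical monocytes, Ace and Ear2 were at 1.94 ± 0.64 and 1.7 ± 0.41 in the Treml4+ cells and at 0.134 ± 0.034 and 0.244 ± 0.075 in the others. Nr4a1 (1.49 ± 0.43 and 1.2 ± 0.27) and Spn (0.693 ± 0.23 and 0.328 ± 0.05) overlapped, and so did Cx3cr1, whose mean was lower in the Treml4+ cells (0.612 ± 0.075 and 0.824 ± 0.55). The split was chosen after the clusters were seen, so no test is given.

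**Figure D3:**
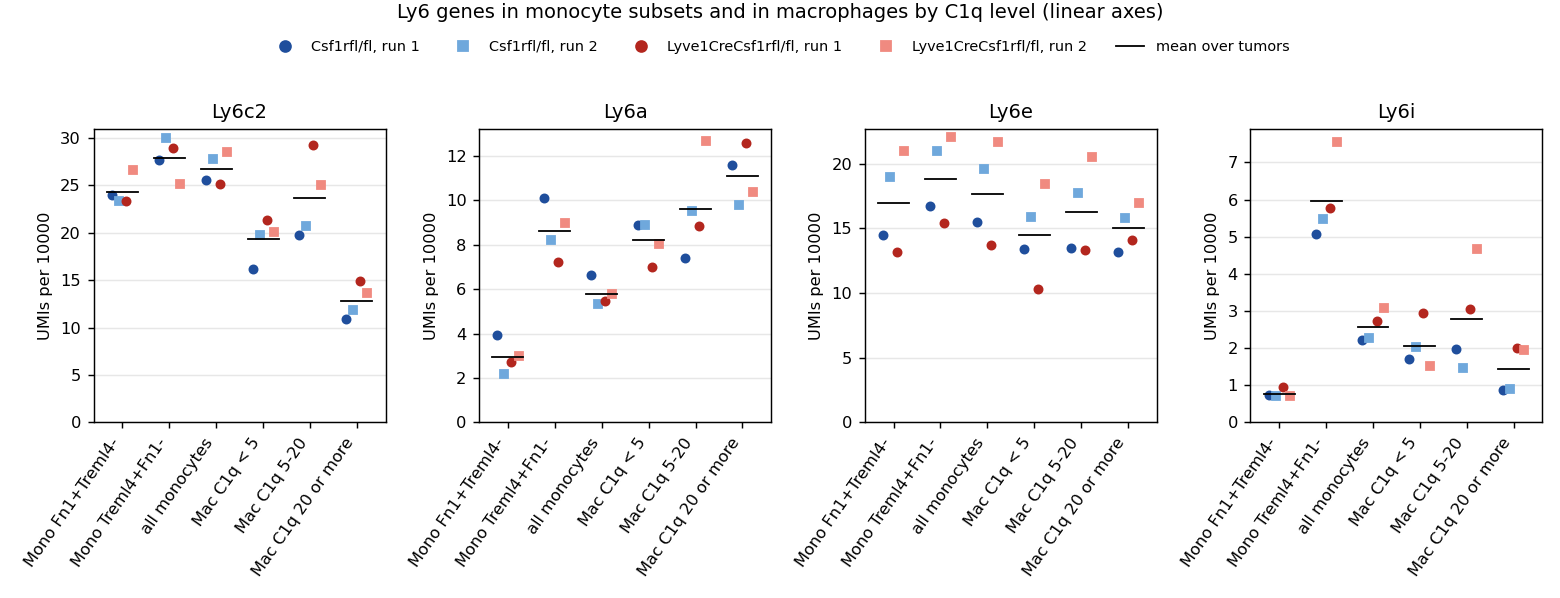
Ly6c2, Ly6a, Ly6e and Ly6i (UMIs per 10000, linear axes) in monocyte subsets and in macrophages binned by summed C1q per 10000, with a point for each tumor and a line at the mean. Ly6i separates Treml4+Fn1- monocytes (5.06 to 7.56) from Fn1+Treml4- monocytes (0.7 to 0.96), and Ly6c2 is lowest in macrophages of 20 or more C1q UMIs per 10000.

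Neutrophils and monocytes differed in 5 of 6 members tested, beside 69.5% of all genes. Ly6g was higher in neutrophils by 7.44 ± 0.22 on the log2 scale (adjusted p = 4.6e-19, edgeR), at 1 against 0.0102 UMIs per 10000. Ly6c2 was lower by a log2 difference of -1.62 ± 0.12, and Ly6a (-0.72 ± 0.12) and Ly6e (-0.31 ± 0.11) were also lower, each in 4 of 4 tumors and without overlap. Ly6a was -1.62 with Scrublet doublets removed and -1.84 with cell types from clusters, and Ly6c2 was -2.22 with clusters. Ly6e did not pass without the tumor as a block (adjusted p = 0.094, edgeR). With library totals Ly6c2, Ly6a, Ly6e and Ly6g were -2.68, -1.78, -1.37 and 6.41. Gated neutrophils had a median of 2076.5 UMIs per cell and monocytes 4850, and the scaling moved this contrast: with library totals in place of TMM the median of all genes moved from -0.14 to -1.20, and the share of called genes that were higher in neutrophils moved from 49.6% to 19.2%. In the other 8 contrasts that shift was between -0.26 and 0.16. Ly6i, at -0.13 ± 0.14 (adjusted p = 0.42, edgeR), was -1.19 with library totals (adjusted p = 2.2e-06), -0.63 with cell types from clusters (0.00016) and -0.30 with no filter (0.031), and its levels (1.13 and 2.58) did not overlap. Ly6d was 1.76 ± 0.54 by TMM (adjusted p = 0.0062, edgeR) and 0.67 by library totals (adjusted p = 0.26), on 34 and 23 UMIs in all, and 2.40 with clusters; its ranges overlapped and it was higher in 2 of 4 tumors. Ly6g was 8.11 without the run 2 Csf1rfl/fl tumor, and Ly6d 2.36 without the run 1 Lyve1CreCsf1rfl/fl tumor. Leaving out the run 2 Lyve1CreCsf1rfl/fl tumor gave 0.08 for Ly6i and -0.20 for Ly6e (adjusted p = 0.59 and 0.17, edgeR), leaving out the run 1 Csf1rfl/fl tumor gave -0.30 for Ly6i (0.041), and leaving out the run 2 Csf1rfl/fl tumor gave -0.30 for Ly6e (0.065).

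Neutrophil clusters, made without the Ly6 genes, divided Ly6g from Ly6i. In cluster 7, led by Pi16, Lrg1 and the granule gene Pglyrp1, Ly6g was at 2.72, 1.21, 2.05 and 1.21 UMIs per 10000 and Ly6i at 0.706, 0.499, 0.549 and 0.221. In cluster 21, led by the chemokine gene Cxcl10, Gbp5 and Saa3, Ly6g was at 0.59, 0.144, 0.354 and 0.0396 and Ly6i at 4.39, 1.87, 2.66 and 2.1. The 2 clusters did not overlap for either gene. Among the 3 neutrophil clusters Ly6g had its highest mean, and Ly6i its lowest, in cluster 7. Median depths were 1886 and 1942 UMIs per cell.

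**Figure D4:**
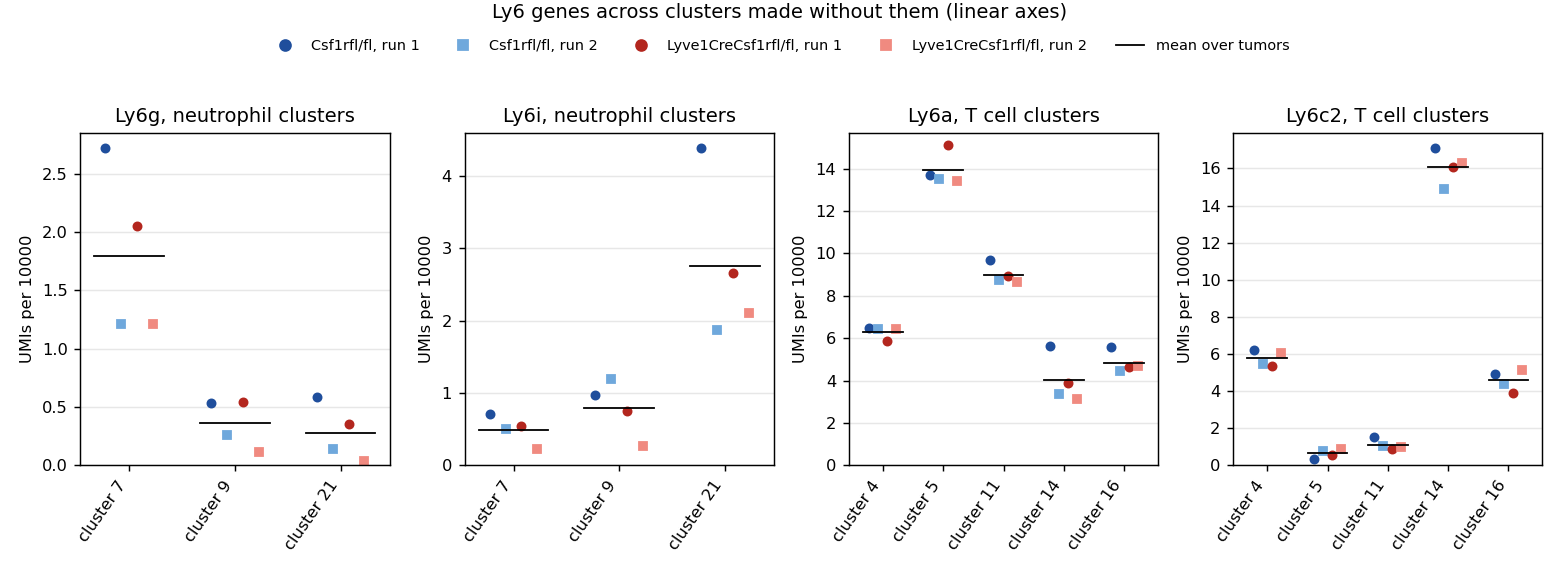
Ly6g and Ly6i in 3 neutrophil clusters and Ly6a and Ly6c2 in 5 T cell clusters (UMIs per 10000, linear axes), with a point for each tumor and a line at the mean. Ly6g is highest in cluster 7 and Ly6i in cluster 21, and Ly6a is highest in cluster 5 where Ly6c2 is lowest; cluster 11 was also led by antigen-presenting cell genes (H2-Aa, Lyz2) and cluster 16 by genes of dividing cells.

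Among dendritic cells the members separated the subsets sharply. pDCs differed from cDC2, the conventional type that presents antigen to CD4 T cells, in all 5 members tested, beside 46.9% of all genes. Ly6d was higher by 10.10 ± 0.15 on the log2 scale (adjusted p = 8.2e-22, edgeR), at 23.2 against 0.0174 UMIs per 10000. Ly6c2 was higher by 2.69 ± 0.07 (6.46-fold), Ly6a by 0.64 ± 0.06 and Ly6e by 0.40 ± 0.06, each in 4 of 4 tumors, with overlap for Ly6e alone. Ly6i was lower, with a log2 difference of -1.82 ± 0.28. With doublets removed Ly6i was -3.0. When cell types were taken from clusters, Ly6d was 7.69 and Ly6c2 1.33, while Ly6a (0.10) and Ly6e (0.11) no longer had an adjusted p under 0.05 (0.23 and 0.2, edgeR).

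Mature dendritic cells, which carry the lymph node homing receptor Ccr7, had the lowest or nearly lowest level of the 3 abundant members. Of 4 members tested 3 were lower than in cDC2. Ly6a was -2.50 ± 0.08 (5.66-fold lower), Ly6e -1.93 ± 0.08 and Ly6c2 -1.56 ± 0.12 on the log2 scale, with no overlap between tumors, beside 60.1% of all genes (adjusted p = 7.5e-15, 2.6e-13 and 1.1e-09, edgeR). Ly6i did not follow them, at 0.391 and 0.463 UMIs per 10000 and a log2 difference of 0.01 ± 0.16 (adjusted p = 0.94, edgeR). Its sign turned with the processing, and with cell types from clusters it was -0.79 (adjusted p = 2.3e-05, edgeR; range over the alternatives 2.3e-05 to 0.97). cDC1, the type that presents antigen to CD8 T cells, were lower than cDC2 in all 4 members tested, by -1.45 ± 0.10 for Ly6a, -1.32 ± 0.23 for Ly6i, -1.21 ± 0.09 for Ly6c2 and -0.29 ± 0.06 for Ly6e, beside 38.4% of all genes (adjusted p at most 0.00059, edgeR). With cell types from clusters Ly6c2 was -2.09 and Ly6i -2.35, and Ly6i was -2.54 with doublets removed. Without the tumor as a block Ly6e did not pass (adjusted p = 0.15, edgeR).

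Between CD8 and conventional CD4 T cells Ly6c2 and Ly6a differed in opposite directions. CD8 T cells had more Ly6c2 than conventional CD4 T cells, at 7.51, 7.1, 7.3 and 9.41 against 4.98, 2.94, 2.03 and 3.24 UMIs per 10000. Their Ly6a was lower, at 6.12, 5.39, 5.25 and 5.28 against 12.8, 13.3, 11.2 and 8.78. Neither gene overlapped. The log2 differences were 1.41 ± 0.13 for Ly6c2 (adjusted p = 6.9e-08, edgeR) and -0.93 ± 0.08 for Ly6a (adjusted p = 3.1e-08, edgeR), and Ly6e was lower in CD8 T cells by -0.73 ± 0.07. Ly6c2 was 2.44 with doublets removed and 2.32 with cell types from clusters. Of 4 members tested these 3 passed, beside 17.5% of all genes. Regulatory T cells differed from conventional CD4 T cells in Ly6c2 alone, at 1.51, 0.93, 0.698 and 1.28 UMIs per 10000 and a log2 difference of -1.59 ± 0.10 (adjusted p = 2.7e-12, edgeR), beside 6.46% of all genes. Ly6a (0.05 ± 0.06) and Ly6e (0.08 ± 0.06) did not pass there.

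CD8 T cells with Gzmb, the granzyme of cytotoxic cells, and no Tcf7 were compared with those with Tcf7, the factor of memory-like and stem-like T cells. The Gzmb+Tcf7- cells had less Ly6c2, at 7.32, 6.01, 6.78 and 8.43 against 11.5, 11.2, 9.91 and 12.7 UMIs per 10000. Their Ly6a was higher, at 6.52, 5.86, 6.12 and 6.48 against 5.28, 4.14, 4.11 and 3.91. Neither gene overlapped between the subsets. The log2 differences were -0.71 ± 0.07 for Ly6c2 (adjusted p = 3.3e-06, edgeR), 0.49 ± 0.08 for Ly6a, -0.58 ± 0.07 for Ly6e and -1.45 ± 0.32 for Ly6i, so all 4 members tested differed, beside 14.8% of all genes. Ly6a did not pass without the tumor as a block (adjusted p = 0.088, edgeR), nor Ly6i with Scrublet doublets removed (0.18). NK cells were below CD8 T cells in Ly6c2 (-1.47 ± 0.12), Ly6a (-0.79 ± 0.08) and Ly6i (-1.03 ± 0.28) and above them in Ly6e (0.48 ± 0.07), beside 24.7% of all genes. The Ly6i value rested on 51 UMIs in NK cells. It was -0.26 with doublets removed (adjusted p = 0.74, edgeR) and -1.01 by DESeq2 (adjusted p = 0.09). It was 0.93 with cell types from clusters, -0.92 without the run 1 Csf1rfl/fl tumor and -0.68 without the run 2 Lyve1CreCsf1rfl/fl tumor (adjusted p = 0.066, 0.08 and 0.11, edgeR; range over the alternatives 5.5e-05 to 0.74).

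The 5 T cell clusters differed in these genes, in opposite directions for clusters 5 and 14, the highest and lowest in Ly6a. In cluster 5, led by Itgae, Areg and Gpr55, Ly6a was at 13.7, 13.5, 15.1 and 13.4 UMIs per 10000 and Ly6c2 at 0.354, 0.772, 0.556 and 0.891. In cluster 14, led by Trdc, Klra7, Emb, Klra1 and Tcf7, Ly6a was at 5.63, 3.39, 3.88 and 3.12 and Ly6c2 at 17.1, 14.9, 16.1 and 16.3. Clusters 5 and 14 did not overlap for either gene. Not every pair ran this way: cluster 4 lay above cluster 16 in both genes without overlap (6.3 ± 0.29 against 4.85 ± 0.51 for Ly6a, 5.77 ± 0.43 against 4.58 ± 0.56 for Ly6c2).

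Whether a cell had both transcripts was counted after each cell was thinned to 1500 UMIs. In pDCs 84.8% of 473 cells had both Ly6a and Ly6c2, near the 84.2% that the product of the single shares gives. In monocytes 35.1% had both, against a product of 34.2%, and in CD8 T cells 29.1% against 27.4%. T cells outside the CD4, CD8, regulatory and gamma delta gates were below the product, at 15.3% against 20.2%. In macrophages 13.1% had both Ly6c2 and Ly6i against a product of 9.27%. In mature dendritic cells 6.56% had both Ly6a and Ly6e against a product of 2.35%.

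The other 32 Ly6 and uPAR domain genes in the table were mostly low. Of these, 11 had 0 UMIs in the kept cells, and Plaur, the urokinase receptor gene, made up most of the rest with 43761 UMIs. Plaur was highest in neutrophils (15.8 UMIs per 10000), 3.54 ± 0.15 above monocytes on the log2 scale (adjusted p = 3e-16, edgeR), and Cd177, a neutrophil surface gene, was 2.22 ± 0.20 above. In pDCs against cDC2, 4 of 4 tested genes of this list were higher, beside 46.9% of all genes called, of which 47.4% were higher. The list genes included Cd59a (5.69 ± 0.72), Lynx1 (3.29 ± 0.48) and Ly6k (2.15 ± 0.50), each at a mean of at most 0.354 UMIs per 10000.

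Genes induced by interferon, a list of 32 of which 31 were tested in each contrast, were read beside the members. The share of all genes called in each contrast is given with that contrast above. In monocytes against macrophages 19 were higher and 0 lower, with a median log2 difference of 0.36 against -0.00 over all genes, whereas Ly6a was lower there. In cDC1 against cDC2, 28 were lower and 0 higher (median -1.04 against 0.01), as were all 4 members. In pDCs against cDC2, 21 were lower and 5 higher (median -0.96 against -0.02), with Ifit3 at -3.58 ± 0.18, while Ly6a, Ly6c2, Ly6d and Ly6e were higher. In CD8 against CD4 T cells 22 were lower and 0 higher (median -0.64 against 0.02), as were Ly6a and Ly6e but not Ly6c2. In mature dendritic cells against cDC2, 22 were lower and 6 higher, among them Irf1 (1.79 ± 0.11), with a median of -0.77 against 0.03. In neutrophils against monocytes 22 were higher and 5 lower (median 0.91 against -0.14), with Rsad2 at 3.03 ± 0.13. With library totals that contrast had 11 higher and 15 lower, and the median turned to -0.15 against -1.20 over all genes. Of the remaining contrasts, 5 were higher and 7 lower in NK cells (median -0.10 against -0.01), beside 24.7% of all genes called. In regulatory T cells 1 was higher and 9 lower (median -0.25 against 0.00), beside 6.46%. In Gzmb+Tcf7- CD8 T cells 1 was higher and 8 lower (median -0.23 against 0.00), beside 14.8%.

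The study used the genotypes to ask what changes in the remaining macrophages when those expressing LYVE-1 are depleted. Within 13 cell types, 53 pairs of a member and a cell type were tested, and 0 had an adjusted p under 0.05 by edgeR's quasi-likelihood test without a run term, beside 0.012% of all gene by cell type tests. That share was 0.167% in cDC1, 0.0216% in pDCs, 0.0111% in macrophages and 0% in the other 10 types. At an unadjusted p under 0.05 there were 2 pairs, beside 1.96% of all gene by cell type tests. DESeq2 and the fit with the run as a block each called 1, beside 0.012% and 0.273% of all tests. The median log2 difference over the 53 pairs was -0.10.

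Ly6i in macrophages was the pair that DESeq2 and the run block called. Its level was 1.23 and 1.24 UMIs per 10000 in the Csf1rfl/fl tumors and 2.5 and 2.59 in the Lyve1CreCsf1rfl/fl tumors. Both tumors of each genotype were close together, and the genotypes did not overlap. The log2 difference, Lyve1CreCsf1rfl/fl minus Csf1rfl/fl, was 1.09 ± 0.21 (adjusted p = 0.16, edgeR), 1.09 ± 0.14 with the run as a block (adjusted p = 5.4e-07, edgeR) and 1.09 by DESeq2 (adjusted p = 0.04). It was 1.12 without the run 1 Csf1rfl/fl tumor, which leaves a single tumor of that genotype, and over the alternatives it ran from 1.02 to 1.16. Where no tumor was left out, the adjusted p ran from 5.4e-07 with the run as a block to 0.5 with cell types from clusters (both edgeR). With the run as a block 1.26% of all genes were called in macrophages.

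In the macrophages of 20 or more C1q UMIs per 10000, Ly6i was at 0.87 and 0.895 in Csf1rfl/fl tumors and at 2 and 1.94 in Lyve1CreCsf1rfl/fl tumors. In those of 5 to 20 it was at 1.98 and 1.46 against 3.05 and 4.67. In those under 5 the genotypes overlapped, at 1.72 and 2.03 against 2.95 and 1.51. The share of macrophages in the high bin was 64% and 54.4% in Csf1rfl/fl tumors and 53.3% and 50.4% in Lyve1CreCsf1rfl/fl tumors. Retnlg, a neutrophil gene, stood at 0.304 and 0.112 in Csf1rfl/fl macrophages and at 0.397 and 0.248 in the others, and Treml4 at 0.263 and 0.148 against 0.141 and 0.223. The part of these cells in the Ly6i value was not tested.

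Ly6c2 in macrophages was also without overlap between genotypes, at 13.5 and 15.4 against 20.2 and 18.6, but did not pass either fit (0.48 ± 0.24, adjusted p = 1, and 0.064 with the run as a block, edgeR). In monocytes Ly6i was 0.35 ± 0.22 (adjusted p = 1, edgeR), at 2.22 and 2.27 against 2.74 and 3.09. The comparisons of genotype effects between cell types that follow were added after the data were seen. The Ly6i effect in macrophages exceeded that in monocytes by 0.76 ± 0.14 on the log2 scale with the tumor as a block (adjusted p = 0.0097, edgeR), beside 0.617% of all genes, and did not pass without that block (adjusted p = 1). Against cDC2, where 0.206% of all genes were called, the Ly6c2 effect in macrophages was larger by 0.76 ± 0.15 (adjusted p = 0.029 with the block and 1 without, edgeR). Ly6i did not pass against cDC2 (0.80 ± 0.28, adjusted p = 0.43, edgeR) or against neutrophils (1.31 ± 0.30, adjusted p = 0.25, edgeR). Ly6c2 in cDC1 was lower in Lyve1CreCsf1rfl/fl tumors at an unadjusted p of 0.044 (edgeR), at 2.77 and 2.13 against 1.38 and 1.77. For 12 of the 53 pairs the genotypes did not overlap, beside 22.7% of all gene by cell type tests, so the members were close to that background. With 2 tumors against 2 an exact two-sided permutation test cannot go below 0.333. For Ly6d in pDCs the log2 difference was 0.00 ± 0.31 and for Ly6g in neutrophils -0.34 ± 0.39, differences that these tumors do not resolve.

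**Figure D5:**
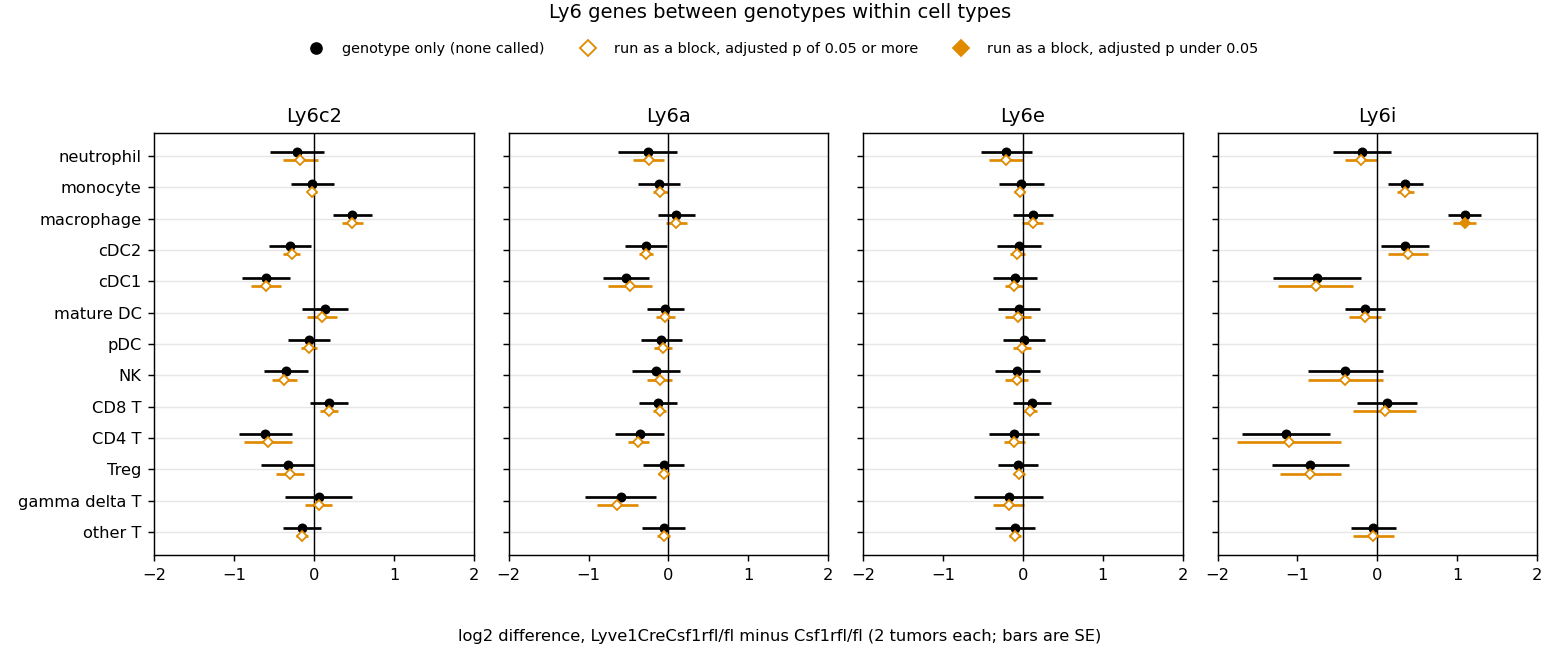
Log2 difference between genotypes (Lyve1CreCsf1rfl/fl minus Csf1rfl/fl, 2 tumors each, bars are SE) of 4 Ly6 genes in 13 cell types, without a run term (black) and with the run as a block (orange). Ly6i in macrophages lies at 1.09 in both fits and is the only filled diamond.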

How the data were processed

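CD45+ cells of 4 tumors were measured with the Chromium Single Cell 3′ kit. The authors aligned reads with Cell Ranger 6.0.1 to mm10 and deposited raw UMI counts per gene and cell and hashtag counts per cell. The deposited normalized table, whole-number scores from SCTransform in Seurat, gave only the names of the cells the authors kept: singlets with under 5% mitochondrial reads outside clusters specific to the second Lyve1CreCsf1rfl/fl tumor.

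A cell belonged to the tumor whose hashtag was higher once each hashtag was centered over the cells of its run (centered log ratio). A lineage gate needed at least 2 distinct markers. Monocytes also needed Lyz2 and no C1qa, C1qb or C1qc UMI, and macrophages needed a C1q UMI. Neutrophils needed S100a8 and S100a9 at 100 or more per 10000 together, and cDC2 needed Cd74 and H2-Ab1 at 50 or more. Mature dendritic cells needed Fscn1 or Cacnb3, pDCs Siglech, cDC1 Xcr1 or Clec9a, and NK cells no Cd3d, Cd3e or Cd3g. Cell types with at least 20 cells in every tumor were tested. UMIs were summed per tumor and cell type, and fitted with edgeR 4.0.16 (R 4.3.3, TMM, filterByExpr, quasi-likelihood test, Benjamini-Hochberg adjustment over all genes, threshold 0.05): genotype alone within a type, and cell type with the tumor as a block. Clusters (scanpy 1.11.5, Leiden resolution 1.2, 2500 genes without the members) and Scrublet were checks on the gates. A cluster took a name where 70% or more of its singly gated cells shared a gate and fewer than 30% matched several. The fits were tested on simulated data.

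Replicates are separate tumors, and p-values rest on 2 of each genotype. Same-numbered tumors shared a Chromium run, and their deviations from the genotype means correlated in all 13 cell types (r = 0.16 to 0.37), so the run pairs the tumors. Alternatives were DESeq2 1.42.0, library totals, no filter, the run or tumor block added or dropped, a hashtag at least 3 times the other, at least 3 markers, types from clusters, doublets removed and each tumor left out. Differences of the genotype effect between cell types, the monocyte split, the left-out cells and the interferon list under library totals were added after seeing the data.

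The members and gene lists were chosen with earlier results of these data known. Named genes were the 7 members, the 4 genes most like each by Pearson r of log2(UMIs per 10000 + 0.1), and up to 3 called genes of largest change per list and contrast. Transcripts were aligned in pairs with Biopython 1.88.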

Additional observations from a re-analysis of the deposited data

Results flagged for a closer look

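The difference between genotypes was itself compared between macrophages and other myeloid types, in a fit with the tumor as a block that was added after the data were seen. For Ly6i the log2 effect in macrophages exceeded that in monocytes by 0.76 ± 0.14 (SE; adjusted p = 0.0097, edgeR's quasi-likelihood test), beside 0.617% of all genes called. For Ly6c2 it exceeded that in monocytes by 0.51 ± 0.11 (adjusted p = 0.035, edgeR) and that in cDC2 by 0.76 ± 0.15 (adjusted p = 0.029, edgeR), where 0.206% of all genes were called. The differences for the other members tested did not pass, nor did any member against neutrophils, where Ly6i was 1.31 ± 0.30 and Ly6c2 0.68 ± 0.29 (adjusted p = 0.25 and 1, edgeR). The 3 values that passed share their macrophage tumors. They were positive under every alternative run, and each lost its call under some, among them the fit without the tumor as a block (adjusted p = 1 for each). Leaving out a tumor gave 0.71 to 0.81, 0.37 to 0.65 and 0.50 to 1.02. Without the run 1 Csf1rfl/fl tumor all 3 lost their call (0.71, 0.42 and 0.50), without that of run 2 the 2 against monocytes did (0.74 and 0.54), and without the run 1 Lyve1CreCsf1rfl/fl tumor Ly6c2 against monocytes did (0.37).

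Of the 24932 barcodes that the authors left out, 12490 had under 5% mitochondrial UMIs and a hashtag at least 3 times the other, and Ly6d and Ly6c1 were read in some of them. Left-out B and T cells could also match the monocyte, cDC2, NK, plasma or tumor or stromal gate, whereas kept cells matched a single gate. The part of such cells in the values below was not tested. Ly6d was at 7.43 UMIs per 10000 in 2668 left-out B cells of the run 2 Lyve1CreCsf1rfl/fl tumor, and at 14.5, 4.64 and 10.5 in 225, 80 and 96 B cells of the other tumors, against 2.86 in the 31 kept B cells of that first tumor. Ly6c1 was at 0.925 in 328 left-out CD4 T cells of the same tumor, against 0.107 in its 124 kept conventional CD4 T cells. It was at 0.134 in 24 left-out CD4 T cells of the run 2 Csf1rfl/fl tumor and at 0 in 26 of the run 1 Lyve1CreCsf1rfl/fl tumor, and the remaining tumor held 12 such cells.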

How the results depend on the processing

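The 33 calls of members between cell types became 27 to 35 under the alternatives to these fits (at least 3 markers was run for levels only), where calls over all genes went from 33.7% to between 20.5% and 38.2%, and none of the called members turned its direction except Ly6i in NK against CD8 T cells, which was 0.93 with cell types from clusters. Members tested between cell types numbered 39 in the main fits and 37 to 63 under the alternatives. Members called between genotypes rose from 0 to 1 with DESeq2, with no filter and with the run as a replicate block, each time Ly6i in macrophages. DESeq2 and the block called 0.012% and 0.273% of all genotype tests, and no such share is given for the fit with no filter. The block changed no other genotype call. Leaving out a tumor leaves a single tumor in a genotype, so calls from those fits are not counted here. Dropping the tumor block left 2 of 4 members called between monocytes and macrophages and 3 of 5 between neutrophils and monocytes (range 3 to 6 on leaving out a tumor). Without the block 26.7% of all gene by contrast tests were called, all contrasts together. The share within a single contrast is not given for the alternatives. With cell types from clusters, 3 of 5 members were called between pDCs and cDC2 and 6 of 6 between mature dendritic cells and cDC2. In that setting 38.2% of all gene by contrast tests were called, all contrasts together. Ly6a in pDCs was then 18.7 and Ly6c2 in pDCs 32 UMIs per 10000, and Ly6i in monocytes was 3.45, against 1.87 with at least 3 markers. Of differences that were not called, Ly6i between mature dendritic cells and cDC2 was -0.24 with library totals, -0.02 with no block, -0.79 with clusters, -0.23 with doublets removed and -0.12 to 0.09 on leaving out a tumor (-0.12 and -0.01 without a Csf1rfl/fl tumor). Ly6i was 0.08 between neutrophils and monocytes without the run 2 Lyve1CreCsf1rfl/fl tumor (range -0.30 to 0.08) and 0.25 between CD8 and CD4 T cells without the run 1 Csf1rfl/fl tumor (range -0.51 to 0.25). Ly6a between regulatory and CD4 T cells was -0.05 without the run 2 Lyve1CreCsf1rfl/fl tumor (range -0.05 to 0.12). The cause of these moves was not tested. With library totals in place of TMM the share of calls that were higher moved by over 10 percentage points in 6 contrasts, from 56.8% to 40.8% for monocytes against macrophages, 49.6% to 19.2% for neutrophils against monocytes, 47.4% to 58.7% for pDCs, 51% to 36.3% for mature dendritic cells and 51.7% to 40.4% for cDC1 against cDC2, and 50.2% to 30.7% for CD8 against CD4 T cells. Ly6c1, Ly6d and Ly6g were too low to test in most types, and 38 pairs of a member and a cell type did not reach the count filter between genotypes.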
